A study of Mus with 8 samples.

Results

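The set described here holds 41 genes whose RNA was lower in an elastic than in a viscous hydrogel in mouse monocytes, both in control cells and in cells with the Jak2 V617F mutation. Its members were chosen by the measured gel difference itself, from a table of 17640 Ensembl gene IDs. Of these, 11743 IDs had a mean of 50 or more counts over the 8 libraries. Each library was scaled to CPM (a count divided by the total of its library, times 1000000). An ID was taken where log2 of the elastic over the viscous mean, with 0.1 CPM added to each, was below −1 in control cells and also in Jak2 V617F cells. In control cells 137 IDs (1.17%) passed, in Jak2 V617F cells 127 (1.08%), and 44 (0.375%) passed in both, of which the selection left out 3 IDs. Because the gel difference of both genotypes selected the genes, it is given below as a description with no test, and the same holds for the difference between the genotypes in it.

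The study grew bone marrow monocytes of C57BL/6 mice inside stiff artificial matrix for 3 days and compared viscous with elastic gels. Control cells carried Vav-iCre alone, and the mutant cells carried a Jak2 V617F knock-in with Vav-iCre, a model of myeloproliferative neoplasm, so both genotypes express a Cre recombinase driven by Vav regulatory sequence, which is active in blood-forming cells. All cultures contained 200 ng/mL of IL4 as well as GM-CSF and PGE2, each at 100 ng/mL; the labels state no age for the mice. Each of the 4 groups (control viscous, control elastic, Jak2 V617F viscous, Jak2 V617F elastic) held 2 libraries. Their titles end in a number that occurs once in each gel of a genotype. The control pair from 1_WT_VLVG_6064 and 3_WT_NbTz_6064 is called W2 here and the other control pair W1, and the Jak2 V617F pair from 5_Jak2_VLVG_6061 and 8_Jak2_NbTz_6061 is called J1 and the other J2. No label says that a shared number stands for 1 mouse, or that libraries of a group come from separate mice or cultures. A p-value below thus reflects only how far these libraries scatter, and that scatter may be technical. The gels are marked VLVG (viscous) and NbTz (elastic) in the titles, and what else sets the materials apart cannot be told apart from elasticity.

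Monocytes are circulating precursors that become macrophages or dendritic cells in tissue. GM-CSF and IL-4 are the usual pair of cytokines for turning them into dendritic-like cells in culture, and prostaglandin E2 acts on the same cells through cyclic AMP. JAK2 is the kinase that carries the signal of the GM-CSF receptor. Its V617F form signals without ligand and drives myeloproliferative neoplasms, which can scar the marrow and change its mechanics. An elastic gel stores the force a cell applies, whereas a viscous one relaxes and lets the cell remodel its surroundings.

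The identities of the members cannot be given by name. The count tables hold Ensembl IDs without symbols, and the gene table used as a reference (49997 RefSeq genes, GRCm38.p6) paired 0 of them with an Ensembl ID. The 36 gene lists prepared for pathways, cell types and contaminating cells were therefore not compared with the set, the labelled monocyte identity was not checked against its markers, and neither Jak2 nor any sequence or position is reported. Only 2 members are printed by ID. ENSMUSG00000000204 had the highest mean CPM. For ENSMUSG00000028435, the larger of the log2 ratios of the 2 genotypes was the lowest of the set. Some members lay lower in control or in Jak2 V617F cells alone. All members but these 2 are called by their rank in mean CPM, from 1 to 41. CPM is not divided by transcript length, so a rank orders shares of counts and not numbers of transcripts.

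Libraries held 30632355 to 38408851 counts. Both W1 libraries stood apart from the other 6 over all 11743 IDs, with scores of 57.0 (viscous) and 55.2 (elastic) on the first principal component (51.5% of the variance) against −28.7 to −8.97. Replicates of a group differed by far more than sampling of reads gives, with a chi-square of 23.5 to 334.5 for each degree of freedom.

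Together the 41 genes took 2699 and 2663 CPM in the control viscous libraries (W2 and W1) and 1347 and 971.1 CPM in the control elastic ones. In Jak2 V617F cells they took 2356 and 2692 CPM in viscous gel (J1 and J2) and 931.6 and 1208 CPM in elastic gel. Every viscous library thus gave the set more than every elastic one, which follows from how the genes were picked. The sum leans on 1 gene, since without the first-ranked member it was 1029 to 1939 CPM in viscous and 507.3 to 721.2 CPM in elastic gel. In these bulk RNA samples, fewer cells that express a gene and less of its RNA per cell cannot be told apart.

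ENSMUSG00000000204, the first by level, stood at 759.8 and 1133 CPM in the control viscous libraries (W2 and W1) and at 626.3 and 310.4 CPM in the control elastic ones. Jak2 V617F cells had 1327 and 992.2 CPM in viscous gel (J1 and J2) and 424.3 and 638.6 CPM in elastic gel. All 4 viscous libraries lay above all 4 elastic ones, but the gap was narrow in number W2. The group means were 946.1 ± 263.6 and 468.4 ± 223.4 CPM in control cells and 1160 ± 236.8 and 531.4 ± 151.6 CPM in Jak2 V617F cells (viscous and elastic, SD, n = 2 each). This gave log2 ratios of −1.01 and −1.13, so the most abundant member is also 1 of the 3 nearest to the limit. Within a number its log2 ratio ran from −0.28 (W2) to −1.87 (W1).

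ENSMUSG00000028435, of rank 21, had the lowest larger ratio of all members, with log2 ratios of −1.90 in control and −1.89 in Jak2 V617F cells. It stood at 9.42 and 2.77 CPM in the control viscous libraries (W2 and W1) and at 1.91 and 1.21 CPM in the elastic ones. In Jak2 V617F cells it stood at 8.49 and 16.3 CPM in viscous gel (J1 and J2) and at 3.40 and 3.12 CPM in elastic gel. Viscous and elastic libraries did not overlap within a genotype. Across genotypes they did, because the W1 viscous library was below both Jak2 V617F elastic libraries. The viscous means were 3.74-fold the elastic ones in control cells and 3.71-fold in Jak2 V617F cells.

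**Figure D1:**
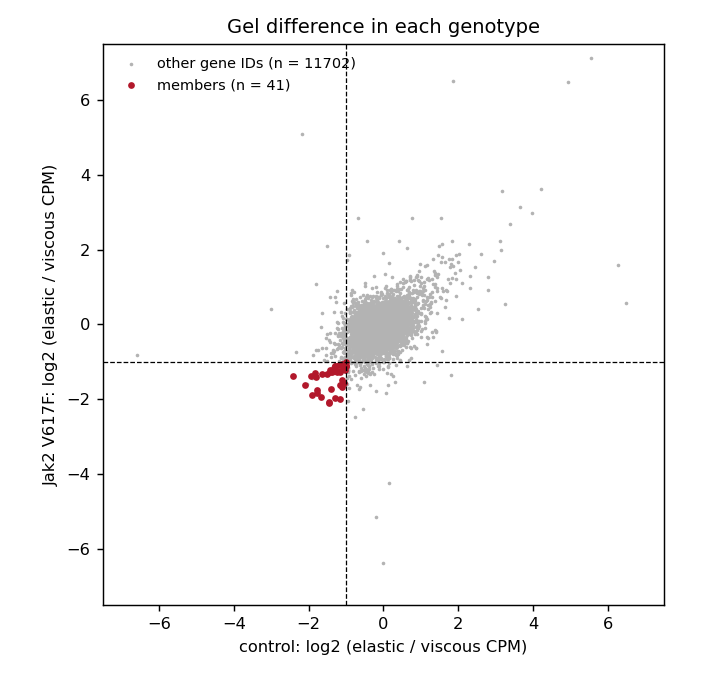
Each point is a gene ID with a mean of 50 or more counts, at its log2 ratio of elastic over viscous mean CPM in control cells (horizontal axis) and Jak2 V617F cells (vertical axis). Dashed lines mark −1; the 41 members (red) fill the lower left corner, and the 3 IDs left out there are grey.

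Over the 41 members the log2 ratio of elastic to viscous ran from −2.41 to −1.01 in control cells (median −1.29) and from −2.11 to −1.002 in Jak2 V617F cells (median −1.31). Over all 11743 IDs the medians were −0.03 and −0.03. The ratio was lower in Jak2 V617F cells for 21 members and in control cells for the other 20. The ratio in Jak2 V617F minus that in control cells ranged from −0.84 to 1.02 with a median of −0.03, and it exceeded 0.5 in size for 10 members. The widest gap belonged to the gene of rank 15, which was 5.33-fold lower in elastic gel in control and 2.62-fold lower in Jak2 V617F cells. Members nearest inside the limit had a larger ratio of −1.014, −1.011 and −1.002, and the IDs nearest outside it −0.992, −0.992 and −0.990, so the edge of the set is continuous with the genes beyond it.

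Most members were genes of low level. Mean counts per library ran from 51.0 to 27119 with a median of 205.3, where the median of all 11743 IDs was 1012. Of the 41, 5 averaged 100 CPM or more, 12 lay between 10 and 100 CPM, and 24 lay under 10 CPM. In this order, their median log2 ratios were −1.12, −1.31 and −1.27 in control and −1.14, −1.40 and −1.30 in Jak2 V617F cells. By these medians the class of 100 CPM or more lay nearest to the limit.

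The members differed in how well single libraries bore out the group means. All 4 viscous libraries exceeded all 4 elastic ones for 18 of the 41, against 1.94% of all 11743 IDs. Within control cells both viscous libraries exceeded both elastic ones for 28 members (15.8% of all IDs), and within Jak2 V617F cells for 33 (23.3%). Both genotypes were free of overlap for 24 members (4.58% of all IDs), and neither was for 4 (65.5%). The members were picked on this contrast, so these shares describe the set and test nothing.

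The gene of rank 4 is an example of clear separation. It stood at 268.5 and 194.5 CPM in the control viscous libraries (W2 and W1) and at 74.7 and 55.5 CPM in the elastic ones. In Jak2 V617F cells its levels were 178.6 and 248.9 CPM in viscous gel (J1 and J2) and 91.6 and 80.7 CPM in elastic gel. The lowest viscous value was that of J1, and it lay well above the highest elastic one, also of J1. Its means were 3.55-fold lower in elastic gel in control cells and 2.48-fold lower in Jak2 V617F cells.

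A member of rank 25 showed the same order at a low level with the closest replicates of the set. Its viscous libraries lay at 6.56 and 5.54 CPM in control (W2 and W1) and, for Jak2 V617F, at 5.78 and 6.82 CPM (J1 and J2). Its elastic libraries lay at 2.60 and 2.97 CPM in control and, for Jak2 V617F, at 3.06 and 2.49 CPM. No 2 replicates of a group differed by more than 1.22-fold, and the gel difference was 2.13-fold in control and 2.23-fold in Jak2 V617F cells.

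The gene of rank 6 was also separate in all libraries. It stood at 95.2 and 169.0 CPM in the control viscous libraries (W2 and W1) and at 47.6 and 51.4 CPM in the elastic ones. Its Jak2 V617F levels were 98.1 and 98.2 CPM in viscous gel (J1 and J2) and 23.8 and 35.0 CPM in elastic gel. The viscous libraries of Jak2 V617F cells were nearly equal, while those of control cells differed 1.77-fold.

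**Figure D2:**
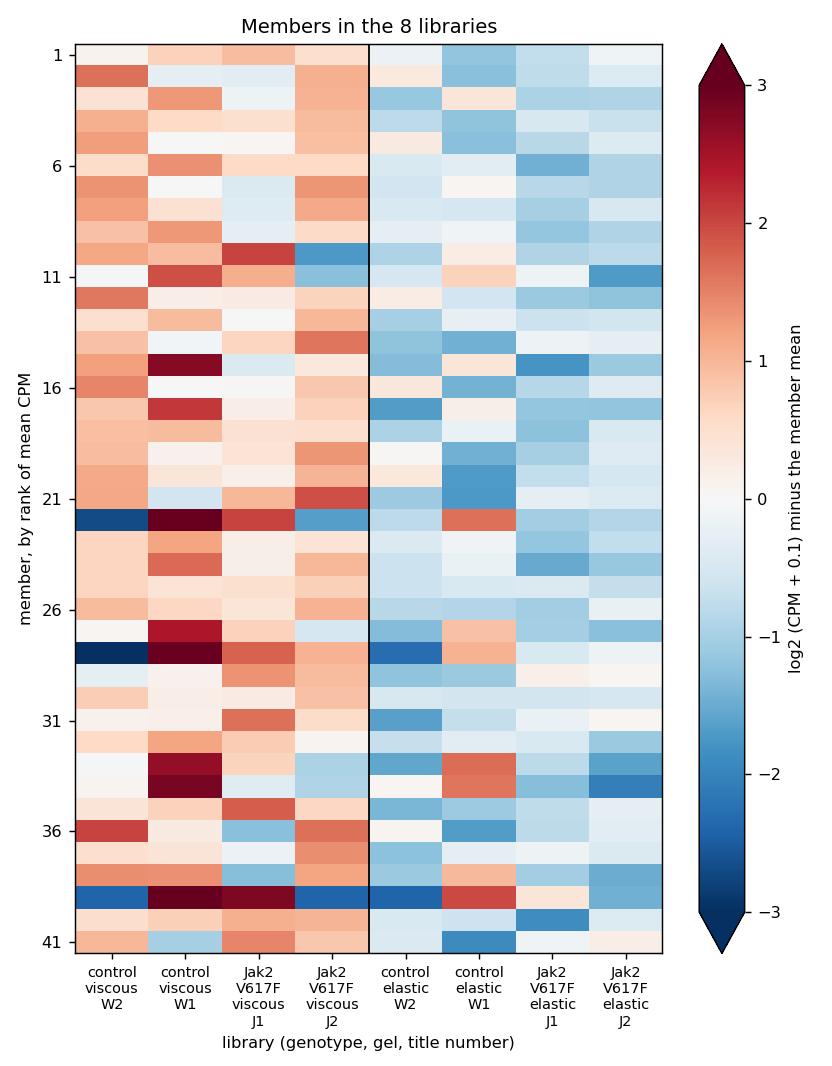
Rows are the 41 members by rank of mean CPM and columns the 8 libraries, with viscous gel left of the line and elastic gel right of it; colour is log2 (CPM + 0.1) minus the member's mean over the libraries (colours end at −3 and 3). Most rows are red on the left and blue on the right. Within a number, elastic was not lower for rows 22, 28 and 39 (W2), 7 (W1), 36, 37 and 38 (J1), and 10, 22 and 39 (J2).

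Dividing each elastic library by the viscous library of the same number gave 4 ratios per gene. All 4 were below 0 on the log2 scale for 33 members (12.9% of all 11743 IDs), 3 were for 6 members, and 2 were for the remaining 2. The median ratio was −1.36 in number W2, −1.30 in W1, −1.30 in J1 and −1.42 in J2, against −0.06 to 0.02 over all IDs. A ratio below −1 was reached by 29 members in W2, 28 in W1, 24 in J1 and 29 in J2. Over all 11743 IDs, 220, 274, 224 and 239 reached it, in the same order. By the limits, each member has to be below −1 in at least 1 number of each genotype. Only 7 members were below −1 in all 4 numbers, 14 were in 3 and 20 in 2, against 10, 33 and 157 of all IDs. These 7 had mean levels of 2.26 to 11.2 CPM, and ENSMUSG00000028435 is 1 of them.

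**Figure D3:**
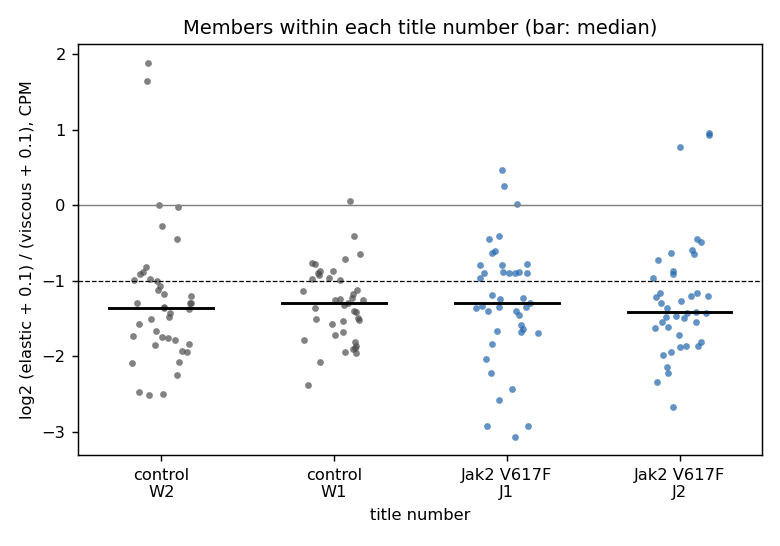
Each point is a member, at the log2 ratio of its elastic over its viscous library within a title number (0.1 CPM added); bars are medians and the dashed line marks −1. The medians lie between −1.42 and −1.30, and 3 members or fewer in each number are at or above 0.

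In 2 members only 1 number of each genotype was lower in elastic gel. One, of rank 22, stood at 0.245 and 22.2 CPM in the control viscous libraries (W2 and W1) and at 1.18 and 6.82 CPM in the elastic ones. Jak2 V617F cells had 8.88 and 0.602 CPM in viscous gel (J1 and J2) and 0.971 and 1.10 CPM in elastic gel. Its membership thus rests on the viscous libraries W1 and J1, since it was higher in elastic gel in W2 and J2.

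The member of rank 39 was likewise carried by W1 and J1. It was counted at 5.77 CPM in the viscous and 1.99 CPM in the elastic library of W1, and had 0 counts in both libraries of W2. The mutant cells had 3.54 CPM in viscous gel in J1 and 0 counts in J2, and 0.571 and 0.0946 CPM in elastic gel. At this depth 0 counts allow up to 3 counts, or 0.0920 CPM in the viscous library of W2, for counting error only. In viscous gel of W2 the member of rank 28 also had 0 counts, against 11.7 CPM in W1.

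In the gene of rank 10, the difference in Jak2 V617F cells rested on 1 library. Its viscous levels were 74.4 CPM in J1 and 5.45 CPM in J2, and its elastic levels 9.66 and 10.4 CPM. In control cells it was separate, at 40.4 and 34.6 CPM in viscous and 9.41 and 21.1 CPM in elastic gel (W2 and W1). Leaving out 1 of the 8 libraries kept between 25 and 36 of the 41 members, with the fewest left without the Jak2 V617F viscous library of J2. The number of IDs that passed was then 33 to 78, and it was 78 without the control elastic library of W1. With both W1 libraries left out, 54 IDs passed, 29 of them members; without both W2 libraries, 38 passed, 28 of them members.

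The limit was set on means of 2 libraries, so 1 extreme library can carry an ID past it, and the spread between replicates is also a description with no test. The median fold between the replicates of a group was 1.77 in control viscous, 1.95 in control elastic, 1.81 in Jak2 V617F viscous and 1.28 in Jak2 V617F elastic gel (on CPM + 0.1). Over all 11743 IDs the medians were 1.22, 1.22, 1.15 and 1.08. Replicates differed more than 2-fold for 18, 20, 16 and 3 members (43.9%, 48.8%, 39.0% and 7.32%), compared with 10.9%, 12.1%, 4.07% and 0.945% of all IDs. The 57 IDs that passed the mirrored limits (higher in elastic gel in both genotypes, 0.485% of all IDs) had median folds of 2.35, 5.57, 2.11 and 1.18, which exceeded those of the members in every group but Jak2 V617F elastic. A wide spread between replicates was thus shared by both sets picked on the gel difference. The members also had lower counts than the table as a whole, and the part of this in their spread was not tested. The difference of the replicates exceeded counting error (the 95% exact binomial interval of the split of a member's counts left out the split of the library totals) for 33, 31, 35 and 16 members. These intervals cover counting error only, since reads amplified by PCR are not independent molecules. In the mirrored set, counting error was exceeded for 50, 56, 45 and 40 of the 57 IDs. The share over all 11743 IDs was not computed, so these counts describe no trait particular to the members.

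In control cells, the number that was higher for a gene in viscous gel was mostly higher in elastic gel too. The sign of the difference between W2 and W1 was the same in both gels for 34 members (82.9%), of which 14 were higher in W2 and 20 in W1. Over all IDs the share was 72.9%. Across the 41 members, which share these 4 libraries, the differences correlated with r = 0.83 and rho = 0.81 (0.70 and 0.64 over all IDs). In Jak2 V617F cells the sign was the same for 24 members (58.5%), with r = 0.43 and rho = 0.17, where all IDs gave 43.5%, −0.12 and −0.17. The members are genes of 1 table and not replicates, so these values describe the libraries.

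By which library was higher in viscous gel, by however little, most members were in 2 classes. In 17 members (41.5%) the higher libraries were W2 among control and J2 among Jak2 V617F cells, a combination found in 22.2% of all IDs. In 13 members (31.7%) they were W1 and J1, against 39.0% of all IDs. The other 9 and 2 were higher in W1 and J2 and in W2 and J1. Over the members the control and Jak2 V617F differences correlated with r = 0.65 and rho = 0.57 in viscous gel (0.24 and 0.29 over all IDs).

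The gene of rank 2 is of the first class. It stood at 596.9 and 156.6 CPM in the control viscous libraries (W2 and W1) and at 229.6 and 79.1 CPM in the elastic ones. Its Jak2 V617F levels were 151.7 and 393.1 CPM in viscous gel (J1 and J2) and 111.2 and 142.4 CPM in elastic gel. Its elastic library of W2 lay above the viscous library of W1, so the gels overlapped in control cells although each number gave a lower elastic value. The 17 genes of this class summed to 1440 and 616.7 CPM in the control viscous and to 572.1 and 1156 CPM in the Jak2 V617F viscous libraries, in the same order of numbers.

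Mean levels in the W1 and J1 class ran from 1.46 to 776.4 CPM with a median of 2.29 CPM, and in the W2 and J2 class from 1.65 to 232.6 CPM with a median of 7.78 CPM. The former holds ENSMUSG00000000204 and the genes of ranks 22, 28 and 39. Of the 13, 10 were lower in elastic gel in all 4 numbers, and of the 17, 13 were. Of the 57 IDs of the mirrored set, 5 (8.77%) were in the W2 and J2 class and 37 (64.9%) were higher in W2 and J1. The difference between these shares was not tested.

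**Figure D4:**
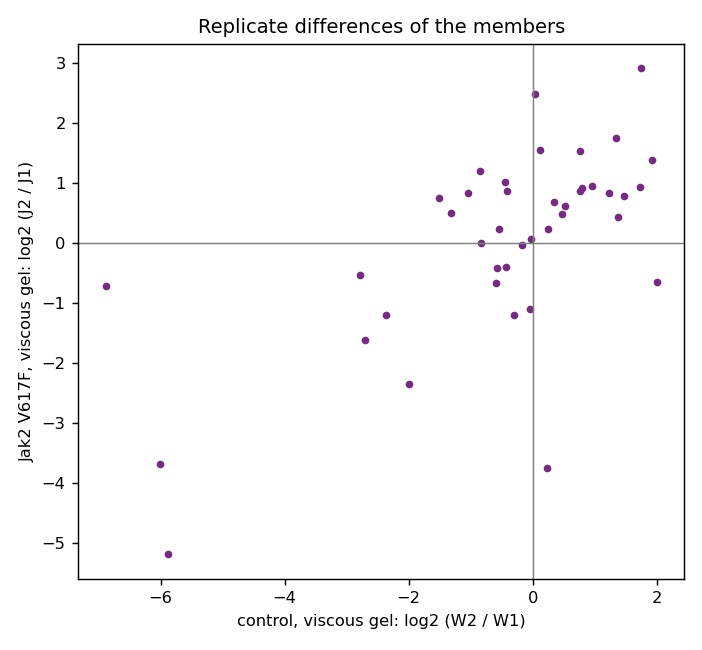
Each point is a member, at the log2 ratio of its control viscous libraries, W2 over W1 (horizontal), and of its Jak2 V617F viscous libraries, J2 over J1 (vertical), with 0.1 CPM added. The upper right field holds 17 members and the lower left field 13, among them the genes of ranks 22, 28 and 39 at the far left.

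Genotype over both gels was the comparison that the rule did not use. The genotype difference within 1 gel also holds part of the gel difference of each genotype, which did choose the members. Libraries that scatter far can also have affected these comparisons through the selection, and this was not tested. The question was whether the level of these genes, over both gels, differed between Jak2 V617F and control cells. The members leaned towards lower levels in Jak2 V617F cells, but no member passed the test. On the counts of both gels summed per number (2 sums against 2), 27 members were lower and 14 higher in Jak2 V617F cells, with a median log2 fold change of −0.36 and a range of −2.83 to 1.31, where the median of all 15239 IDs tested was −0.0049. By edgeR's quasi-likelihood test with Benjamini-Hochberg adjustment over all IDs, 0 of the 41 members and 0% of all IDs were called (adjusted p under 0.05), and the smallest adjusted p among members was 0.792. At an unadjusted p under 0.05 there were 5 of the 41 members (2 higher and 3 lower) and 5.22% of all IDs.

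The direction of the median depended on single numbers. It was 0.099 without W2 and 0.064 without J1, and −0.10 without W1 and −0.51 without J2. By limma-voom on all sums the median was −0.20. Without W2, with W1 as the lone control sum and its spread taken from the Jak2 V617F sums, edgeR called 11 members (4 higher and 7 lower) and 16.6% of all IDs, and without any other number it called 0 members. DESeq2 called 1 member, higher in Jak2 V617F cells, and 0.696% of all IDs; limma-voom called 0 members, with 3 at an unadjusted p under 0.05 (5.04% of all IDs).

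**Figure D5:**
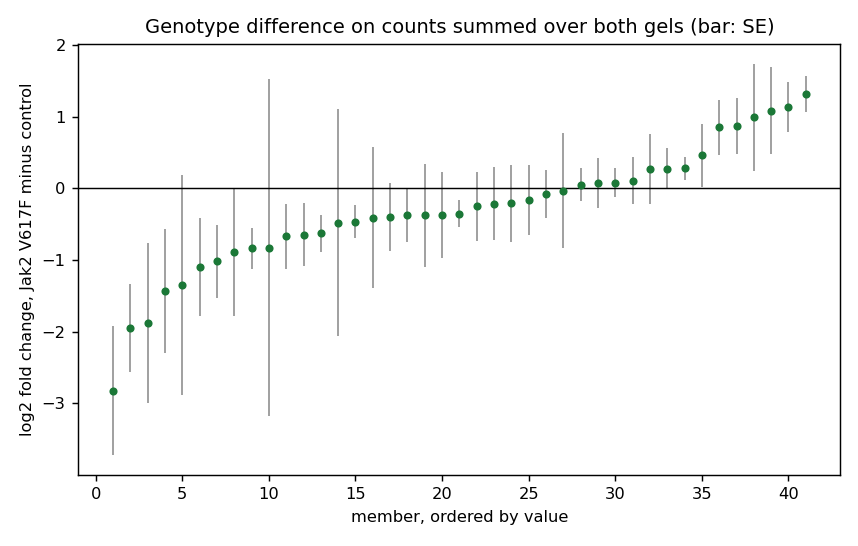
Points are the 41 members in order of their log2 fold change, Jak2 V617F minus control, on counts summed over both gels (vertical axis), with bars of 1 standard error from edgeR. Values run from −2.83 to 1.31, with 27 members below 0 and 14 above.

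Within viscous gel, 28 members were lower and 13 higher in Jak2 V617F cells by edgeR. The median log2 fold change was −0.32 (−0.0087 over all IDs), and −0.26 by limma-voom. By mean CPM, 13 members and 5570 of all 11743 IDs were higher in Jak2 V617F cells. edgeR called 0 members and 0% of 14785 IDs, and 4 members had an unadjusted p under 0.05, against 7.31% of all IDs. DESeq2 called 1 member (0.413% of all IDs), and limma-voom called 0, with 4 members at an unadjusted p under 0.05 (7.61% of all IDs). Both Jak2 V617F libraries lay above both control libraries for 3 members and below them for 7, where 18% and 19.8% of all IDs did so. Without both W2 libraries edgeR called 3 members, all lower, and 4.98% of all IDs, and the median became 0.22; without the viscous library of J1 it was 0.14.

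Within elastic gel, 31 members were lower and 10 higher in Jak2 V617F cells by edgeR. The median log2 fold change was −0.32 (−0.0099 over all IDs), and −0.12 by limma-voom. With libraries left out the edgeR median stayed negative, but its size depended on single libraries. It was −0.53 without the elastic library of J2 and −0.17 without that of J1. Without both W1 libraries it was −0.089, with 22 members lower and 19 higher, so most of the lean in elastic gel rested on W1. By mean CPM, 11 members and 5754 of all 11743 IDs were higher in Jak2 V617F cells. edgeR called 0 members and 0% of all IDs, with 6 members at an unadjusted p under 0.05, against 4.42% of all IDs. DESeq2 called 0 members (0.298% of all IDs), with 8 at an unadjusted p under 0.05 (5.94% of all IDs), and limma-voom 0, with 3 (3.79%). Both Jak2 V617F libraries lay above both control libraries for 7 members and below them for 8, where 18.2% and 17.7% of all IDs did so. Without both W2 libraries edgeR called 2 members, both lower, and 7.79% of all IDs, and the median was −0.37. The genotype order without overlap was the same in both gels for 5 members, 2 above and 3 below, where 7.37% and 7.15% of all IDs were above and below in both; the gels share title numbers.

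The member with the smallest p for genotype in each of these comparisons was the gene of rank 29, and DESeq2's call on summed counts was the same gene. It stood at 6.72 and 5.06 CPM in the Jak2 V617F viscous libraries (J1 and J2) against 2.09 and 2.86 CPM in the control ones (W2 and W1). In elastic gel it stood at 2.89 and 2.71 CPM in Jak2 V617F and at 1.06 and 1.14 CPM in control cells. Both Jak2 V617F libraries were above both control libraries in each gel. On summed counts it was 2.49-fold higher in Jak2 V617F cells (log2 fold change 1.31, SE 0.26), with an edgeR adjusted p of 0.792 and a DESeq2 adjusted p of 0.0204. In simulated data, DESeq2's share of false calls on summed counts exceeded the nominal one, by more than for the other tools. Those data were drawn without a departure such as that of W1, so this does not settle the call.

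The largest fold change was in the other direction, in the gene of rank 34. Its viscous libraries lay at 1.17 and 8.60 CPM in control (W2 and W1) and, for Jak2 V617F, at 0.833 and 0.547 CPM (J1 and J2). Its elastic libraries lay at 1.15 and 3.59 CPM in control and, for Jak2 V617F, at 0.400 and 0.189 CPM. On summed counts it was 7.09-fold lower (log2 fold change −2.83, SE 0.90, edgeR adjusted p = 0.792), and the higher control values were those of W1.

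For ENSMUSG00000000204 the log2 fold change of Jak2 V617F over control on summed counts was 0.28 (SE 0.16, edgeR adjusted p = 0.795). It was 0.32 (SE 0.40) in viscous and 0.17 (SE 0.40) in elastic gel. Leaving out libraries gave 0.10 to 0.58 in viscous gel and turned the direction in elastic gel, to −0.27 without the elastic library of W1 and −0.13 without that of J2. For ENSMUSG00000028435 it was 1.08 (SE 0.60, edgeR adjusted p = 0.795) on summed counts, 1.03 (SE 0.63) in viscous and 1.06 (SE 0.65) in elastic gel. Neither difference passed the test. For this second gene the value on summed counts depended on single numbers: it was 2.06 without W2 (edgeR adjusted p = 0.0250, the only call), 0.50 without W1 (edgeR adjusted p = 0.552), 1.42 without J1 and 0.65 without J2. With libraries left out it ranged from 0.38 to 2.25 in viscous and from 0.75 to 1.48 in elastic gel.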

How the data were processed

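RNA of 8 libraries (4 groups of 2) was analysed. The authors deposited raw whole-number counts for each Ensembl gene ID, in 1 series table and in 8 library files with equal values. The tools were Salmon and DESeq2 and the build GRCm38, per the submitters' processing notes; versions, the summing of transcripts to genes, and strand are not given in the sources used here. Salmon divides reads shared by near-identical genes by estimation, so members with close copies are uncertain, and without names they were not marked. The set was formed on CPM as described, with Python 3.11.15. Genotype was tested on all IDs with edgeR 4.0.16 (filterByExpr, TMM, quasi-likelihood test, two-sided, Benjamini-Hochberg adjusted p under 0.05) in R 4.3.3: on counts summed per title number, and within each gel in a model of 4 group means over all 8 libraries. All 41 members passed the low-count filter. Alternatives were DESeq2 1.42.0, limma-voom (limma 3.58.1), other scalings and filters, libraries left out and the title number as a block. Standard errors (SE) come from the test statistic. The tests were checked on simulated data with known changes, in which the share of false calls on summed counts exceeded the nominal one for each tool, most for DESeq2. The members and gene lists were chosen with earlier results of these data known. The rule for named genes (members in the lists, of the highest level, farthest below the limit, smallest genotype p, largest replicate fold, and nearest the limit) was applied by rank, as IDs without symbols are printed for 2 members only. The ranks described singly were chosen from it, and ranks 4, 6 and 25 after their values were seen.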

Additional observations from a re-analysis of the deposited data

How the results depend on the processing

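Membership depends on the limits. Of IDs other than the 3 left out, 41 passed as described, 36 on TMM-scaled totals, and 41 with the mean of log2 CPM, of which 31 were members. With 1 CPM added in place of 0.1, 23 passed. A minimum mean of 10 counts gave 82 and of 200 counts 21; a log2 limit of −0.8 gave 85 and of −1.2 gave 21. The other minimums and limits widen or narrow the set by construction. The larger added CPM can only narrow it, and all 23 IDs that passed with it were members. For the TMM totals and the mean of logs the cause was not tested. With libraries left out, 33 to 78 passed. With the title number as a replicate block, taken as a ratio below −1 in all 4 numbers, 7 passed. Over all IDs, the deviations of same-numbered libraries from their group means had a correlation of 0.70 (control) and −0.12 (Jak2 V617F). Over the members it was 0.83 and 0.43. The numbers were not taken as pairs because no label says what they stand for. Crossing the Jak2 V617F numbers, chosen after seeing the data, gave 5. The median gel log2 fold change of the members by edgeR was −1.35, and −1.28 with the title number as a fixed replicate block.

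For genotype, DESeq2 called 1 member on summed counts and 1 in viscous gel where edgeR called 0, and the count was 0 to 11 (summed), 0 to 3 (viscous) and 0 to 2 (elastic) with libraries or sums left out. The other settings, among them limma-voom and its fit with a random replicate block for title numbers (as in the titles and crossed), called 0 members. ENSMUSG00000000204 changed sign in elastic gel when libraries were left out, to −0.13 without J2's elastic library and −0.27 without W1's, in a range of −0.27 to 0.82 (0.81 without W2's). A count of 0 in a library allows up to 3 counts, and 2 libraries per group limit every comparison.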
